A study of Mus musculus with 69 samples.

Results

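The regions described here carried H3K4me1 peaks in haematopoietic progenitor cells (HPCs) of both Kmt2c mutant genotypes and no peak in wild-type HPCs. They were chosen by the presence and absence of peaks, as the autosomal regions of the knockout HPC list that overlapped a peak of the heterozygous HPC list by at least 1 bp and overlapped no peak of the wild-type HPC list. Of 117783 autosomal knockout regions, 11910 (10.1%) met the rule, and they are called mutant-shared regions below. They held 5.28 Mb, or 5.12% of the bases that the knockout list covered on the 19 autosomes. Their pattern across the 3 lists is a description and carries no test.

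The mark H3K4me1 is a single methyl group on lysine 4 of histone H3 and is found mainly on enhancers, active or primed, and on the flanks of promoters. Kmt2c encodes MLL3, which with its paralogue MLL4 places much of this mark at enhancers. H3K27ac, an acetyl group on lysine 27, marks the enhancers and promoters that are active. Haematopoietic stem cells (HSCs) renew themselves and give rise to HPCs, which produce the blood lineages.

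Histone marks were profiled by ChIPmentation, in which chromatin bound by an antibody is tagged with the Tn5 transposase, in sorted and fixed HSCs and HPCs of mice with a conditional Kmt2c allele. Of 69 samples, 63 fell into 18 groups, each with 1 peak list made from all of its libraries, and 6 were input chromatin. The 3 HPC H3K4me1 lists came from 3 libraries each of untreated mice at 8 weeks of age. The genotypes were wild type, heterozygous (Kmt2c f/+; Vav-Cre) and knockout (Kmt2c f/f; Vav-Cre). Vav-Cre is expressed in blood-forming and endothelial cells, so the mutant groups carry both a deleted allele and the Cre transgene, and the labels give no Cre for the wild type. The 15 other lists, which the rule did not use, were H3K4me1 in untreated HSCs of the same 3 genotypes at 8 weeks, H3K4me1 and H3K27ac in wild-type and knockout HSCs at 16 weeks after 3 doses of vehicle (PBS) or of 5-fluorouracil (5FU, 150 mg/kg every 3 weeks), and H3K27ac in wild-type and knockout HPCs at 8 to 10 weeks after PBS or 0.5 µg of interleukin-1 (IL-1) per day for 3 days. Because each group is represented by a single pooled list, genotypes are compared without replicate error and without a test, and every interval below is a Wilson 95% interval that covers counting error only. In sorted populations, fewer cells with a mark and less of the mark per cell cannot be told apart.

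As a check of the label, knockout regions within 50 kb of the genes of several lists were counted. They numbered 400 at 20 granulocyte and monocyte genes and 336 at 17 megakaryocyte and erythroid genes. HSC identity genes had more, with 807 at 20 genes, as did lymphoid genes, with 510 at 19. Genes of mature lymphocytes had 226 at 16 genes, housekeeping genes 288 at 13, and genes that are silent in blood 118 at 18. These counts cannot tell HPCs from HSCs or from other blood cells. The autosomal lists of HPC H3K4me1 held 110391 peaks in the wild type, 118236 in the heterozygote and 117783 in the knockout, over 102.2, 101.3 and 103 Mb. Their read numbers are unknown here.

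Some mutant-shared regions lay at gene starts, and 6 such promoters are shown because they span the range of what the other marks did there. The bases are those upstream of an annotated start that lie inside a mutant-shared region, on the strand of the gene, from RefSeq GRCm38.p6. Capitals mark the motifs found in these bases, of 8 searched: AGGAAGT (bound by ETS factors) and CAGCTG (an E-box bound by basic helix-loop-helix factors). The first is an internal start of Satb1, a chromatin organiser of lymphoid cells (chr17:51826589-51826810, minus strand), whose region had no peak in any of the 15 other lists. Hopx, a homeodomain-like protein (chr5:77095396-77095517, minus strand), and Mcub, a subunit of the mitochondrial calcium channel (chr3:129970207-129970456, minus strand), had H3K4me1 in all 3 HSC lists at 8 weeks and H3K27ac in none. Pbxip1, a partner of PBX factors (chr3:89436454-89436703, plus strand), Rdx, the cytoskeletal linker radixin (chr9:52046900-52047149, plus strand), and Emcn, the surface protein endomucin (chr3:137340828-137341077, plus strand), had H3K27ac in all 8 H3K27ac lists, the wild-type ones included.
Satb1: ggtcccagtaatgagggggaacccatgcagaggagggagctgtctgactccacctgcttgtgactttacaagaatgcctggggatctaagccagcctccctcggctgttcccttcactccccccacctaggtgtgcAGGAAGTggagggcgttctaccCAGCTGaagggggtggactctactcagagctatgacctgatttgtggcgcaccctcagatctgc
Hopx: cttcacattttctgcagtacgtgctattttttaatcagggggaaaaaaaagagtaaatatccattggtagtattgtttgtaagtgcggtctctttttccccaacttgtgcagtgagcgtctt
Mcub: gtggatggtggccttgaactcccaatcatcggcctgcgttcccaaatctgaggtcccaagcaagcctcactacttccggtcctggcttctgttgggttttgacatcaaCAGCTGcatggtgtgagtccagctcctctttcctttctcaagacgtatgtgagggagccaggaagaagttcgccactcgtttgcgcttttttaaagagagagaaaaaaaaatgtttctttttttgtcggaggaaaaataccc
Pbxip1: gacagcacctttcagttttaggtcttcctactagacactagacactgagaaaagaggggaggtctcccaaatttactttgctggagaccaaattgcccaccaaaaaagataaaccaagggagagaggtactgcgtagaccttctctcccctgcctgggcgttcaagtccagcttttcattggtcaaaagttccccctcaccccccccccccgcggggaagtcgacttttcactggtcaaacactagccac
Rdx: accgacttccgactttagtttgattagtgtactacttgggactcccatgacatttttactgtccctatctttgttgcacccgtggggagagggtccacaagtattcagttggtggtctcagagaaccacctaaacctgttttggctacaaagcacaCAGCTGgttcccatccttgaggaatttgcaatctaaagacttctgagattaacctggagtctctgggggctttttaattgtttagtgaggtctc
Emcn: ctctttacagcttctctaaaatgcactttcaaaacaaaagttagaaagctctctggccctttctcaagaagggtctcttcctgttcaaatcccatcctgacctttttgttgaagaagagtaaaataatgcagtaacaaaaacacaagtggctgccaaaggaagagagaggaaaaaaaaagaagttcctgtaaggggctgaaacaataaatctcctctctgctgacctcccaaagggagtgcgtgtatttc

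In the knockout list the Satb1 promoter region had a −log10 p of 10.63 and a fold enrichment of 3.389, and in the heterozygous list 18.41 and 4.639. The Pbxip1 region had a −log10 p of 5.889 in the knockout and 17.73 in the heterozygote, and the Emcn region 10.69 and 5.219. The list with the higher score thus differed between the promoters. All such scores are the authors' own for single peaks, and between lists they also depend on depth.

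Mutant-shared regions were weak and narrow. Their median width was 394 bp (25th to 75th percentile 282 to 551, highest 2524), against 825 bp for the 77655 knockout regions present in all 3 lists, called common regions. Their median −log10 p in the knockout list was 6.915 (5.49 to 8.461, highest 26.1), against 10.69 for common regions and 5.951 for the 18320 regions in the knockout list alone. Their median fold enrichment was 2.719 in the knockout and 2.863 in the heterozygote, and 55.2% had the higher −log10 p in the heterozygote, as did 57.2% of common regions. Only 387 of them (3.25%) fell among the strongest 25% of knockout regions, where they made up 1.31% of the regions and common regions 97.5%. Among the weakest 25% they made up 15.7%. A set of 1160 exceeded the median −log10 p of both mutant lists. Being weak and narrow was not particular to this pattern. Regions shared by wild type and knockout but not the heterozygote had a median width of 371 bp and a median knockout −log10 p of 6.756. Those shared by wild type and heterozygote but not the knockout had a median width of 412 bp.

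**Figure D1:**
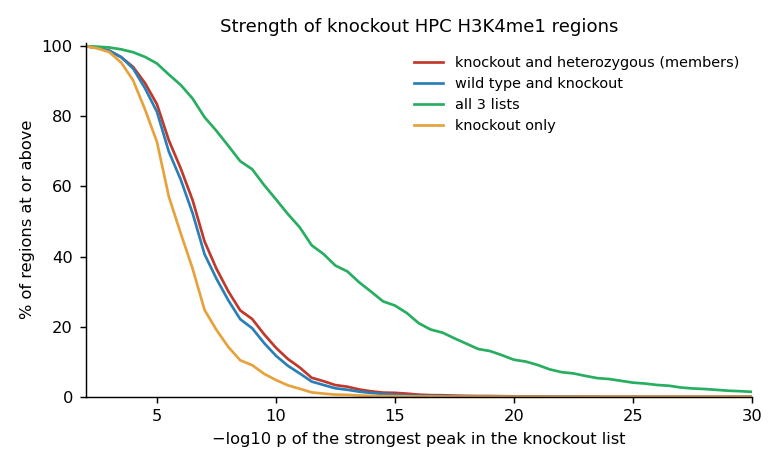
Share of knockout HPC H3K4me1 regions (y axis, %) whose strongest peak reached a given −log10 p in the knockout list (x axis), for 4 patterns of presence in the HPC lists. The curve of the mutant-shared regions (median 6.915) runs beside that of regions shared by wild type and knockout (median 6.756) and far below that of regions in all 3 lists (median 10.69).

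Whether the mutant-shared pattern exceeded the other patterns of its kind depended on how the lists were made equal. When peaks of the 3 HPC lists were joined into 131154 union regions, 22691 lay in exactly 2 lists. Of these, 8676 (38.2%, interval 37.6 to 38.9) lay in the knockout and heterozygous lists, 7322 (32.3%) in the wild-type and heterozygous lists and 6693 (29.5%) in the wild-type and knockout lists. The wild-type list was the shortest. With the 110391 strongest peaks of each list, the shares were 32.5% (31.9 to 33.1), 35.0% and 32.5%, in the same order. With equal covered bases instead they were 38.2%, 34.6% and 27.2%. The regions of the other 2-list patterns serve below as comparison sets: 9898 knockout regions shared with the wild type but not the heterozygote, and 9849 wild-type regions shared with the heterozygote but not the knockout.

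**Figure D2:**
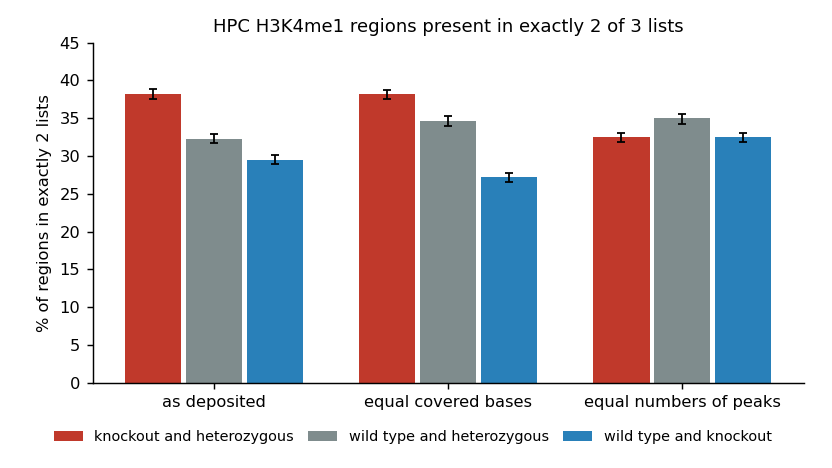
Regions present in exactly 2 of the 3 HPC H3K4me1 lists, as a percentage of all such regions (y axis), by the pair of lists, with Wilson 95% intervals. As deposited and with equal covered bases the knockout and heterozygous pair leads with 38.2%, whereas with equal numbers of peaks it holds 32.5% and the wild-type and heterozygous pair 35.0%.

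Most mutant-shared regions lay beside wild-type H3K4me1. The nearest wild-type region was 518 bp away at the median, 3316 (27.8%) had one within 200 bp, 7484 (62.8%, 62.0 to 63.7) within 1 kb and 10670 (89.6%) within 10 kb. The comparison sets stood much the same to the list that lacked them: 65.1% of regions shared by wild type and knockout had a heterozygous region within 1 kb, and 61.7% of regions shared by wild type and heterozygote had a knockout region. At the edge of the rule, 597 members lay within 50 bp of a wild-type region, and 727 regions were left out by an overlap of at most 50 bp. Both had a median −log10 p of 6.915 in the knockout, and 8.543 and 8.258 in the heterozygote.

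The regions were spread over the genome. On single autosomes they made up from 9.34% (chromosome 7) to 11.3% (chromosome 13) of knockout regions. Neighbouring members were 58570 bp apart at the median, and 20.7% of the gaps were under 10 kb. Of the regions, 71.8% (71.0 to 72.6) lay inside an annotated gene, against 70.6% of regions shared by wild type and knockout and 73.6% of common regions.

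Gene ends, meaning either end of an annotated gene, were less often close by. A gene end lay within 1 kb of 15.7% of the mutant-shared regions (15.1 to 16.4), against 21.1% (20.4 to 22.0) of regions shared by wild type and knockout, 23.1% (22.3 to 24.0) of those shared by wild type and heterozygote and 23.6% of common regions. The same order held in each band of strength: 15.5, 15.5, 15.6 and 19.9% of mutant-shared regions from the weakest to the strongest 25%, against 20.3, 21.0, 22.4 and 29.9% of regions shared by wild type and knockout. Regions in a single list divided by genotype in the same way, with 12.9% for the knockout alone, 14.6% for the heterozygote alone and 20.2% for the wild type alone. Promoter windows of 300 bases were overlapped by 1.88% of 11519 mutant-shared regions outside chromosome 18, 3.25% of regions shared by wild type and knockout and 4.29% of those shared by wild type and heterozygote.

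The promoters inside mutant-shared regions were of high GC content about as often as those of common regions. The regions overlapped 230 promoters of 217 genes, whose median GC content was 52.7% (25th to 75th percentile 46.3 to 58.6). Of these, 21.7% had a GC content of at least 60%, against 43.4% of 461 promoters in regions shared by wild type and heterozygote, 28.9% of 339 in those shared by wild type and knockout, 22.3% of 3480 in common regions, 21.2% of 274 in regions of the knockout list alone and 30% of all 31396 promoters. Motifs were searched on both strands of the whole window. The ETS motif AGGAAGT was in 11.3% (7.83 to 16.0) of the 230, 14.4% of promoters in common regions and 9.37% of all promoters, and the E-box CAGCTG was in 18.7%, 19.9% and 16.3%. The E-box CACGTG was in 11.3% (7.83 to 16.0), 7.79% and 7.14%. Of 8 motifs searched, this one had an interval wholly above the share of all promoters, as it also had in regions shared by wild type and heterozygote (9.98%, 7.56 to 13.1) and in those of the wild type alone (10.5%, 8.34 to 13.0). The RUNX motif TGTGGTT was in 4.35% of the 230 and in 5.32% of all promoters. The GATA motif AGATAAG was in 3.04% and 3.03%. The AP-1 motif TGANTCA was in 6.96% and 7.84%. The C/EBP motif TTGCNNAA was in 12.2% and 10.9%. The CTCF core AGGGGGC was in 9.57% and 10.7%. A match is a string of letters and not a bound site.

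Many of the regions carried H3K4me1 in HSCs, wild-type HSCs included. At 8 weeks, 57.6% overlapped a knockout HSC peak, 52.4% a heterozygous one and 41.7% a wild-type one, against 85.3, 83.5 and 78.6% of common regions. All 3 of these HSC lists held 3651 (30.7%), and none of them held 3608 (30.3%). These shares were 30.4% and 28.7% among regions shared by wild type and knockout, and 31.3% and 27.5% among those shared by wild type and heterozygote. Over all knockout HPC regions they were 55.1% and 19.1%. The mutant-only pattern was repeated in HSCs, with a peak in both mutants and none in the wild type, at 1485 (12.5%, 11.9 to 13.1). That share was 12.4% among regions shared by wild type and knockout and 12.1% among those shared by wild type and heterozygote. It was 8.35% over all knockout HPC regions and 7.02% over common regions. Any wild-type list among the 15 other lists, HSC or HPC, H3K4me1 or H3K27ac, held 8277 (69.5%) of the mutant-shared regions. None of the 15 other lists held 2528 (21.2%). These shares were 72.3% and 18.9% among regions shared by wild type and knockout, and 75.1% and 17.4% among those shared by wild type and heterozygote. Over all knockout HPC regions they were 81.4% and 13.2%.

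**Figure D3:**
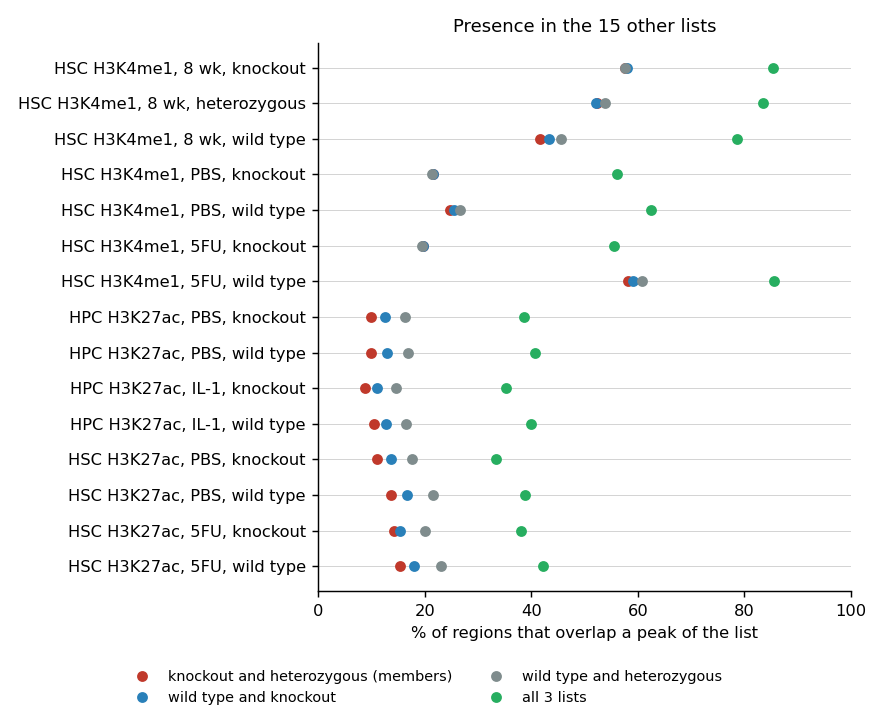
Share of regions (x axis, %) that overlap a peak of each of the 15 lists the rule did not use (y axis), for the mutant-shared regions and 3 comparison sets. The mutant-shared regions lie close to the other 2-list sets in every H3K4me1 list and at or below them in every H3K27ac list, and all 2-list sets lie below the common regions.

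To compare genotypes in lists independent of the rule, regions with a peak in exactly 1 list of a mutant and wild-type pair were counted. Between the 8-week HSC lists, 2610 mutant-shared regions were in the knockout list alone and 723 in the wild-type list alone, which is 21.9% and 6.07% of the regions, against 13.9% and 4.55% of all knockout HPC regions. Of those in 1 list, 78.3% (76.9 to 79.7) were thus in the knockout list. The value was 75.4% over all knockout HPC regions, 74.5% (72.9 to 76.1) over regions shared by wild type and knockout and 70.5% over those shared by wild type and heterozygote. Regions in the knockout HPC list alone gave 77.7% (76.5 to 78.9), an interval that overlaps that of the mutant-shared regions. The knockout HSC list was also the longest, with 133553 autosomal peaks against 117472. From the weakest to the strongest 25% the value for mutant-shared regions was 76.8, 79.1, 78.6 and 85.6%, the last over 104 regions. The heterozygous HSC list gave 2207 regions in the mutant alone and 933 in the wild type alone (background 12.1% and 5.7% of all knockout HPC regions), or 70.3% against 66.0% and 64.6% in the comparison sets. Mutant-shared regions thus leaned to the mutant HSC lists somewhat more than like regions did, and most of that lean was present in every set.

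At 16 weeks more of the regions in 1 list were in the wild-type list. After PBS, 923 mutant-shared regions were in the knockout HSC H3K4me1 list alone and 1296 in the wild-type list alone (background 6.76% and 11.8%), so 41.6% (39.6 to 43.7) of the regions in 1 list were in the knockout, against 40.1% and 37.3% in the comparison sets and 36.4% over all knockout HPC regions. After 5FU the counts were 65 and 4650 (background 0.397% and 31.8%), or 1.38% against 1.23%. The wild-type 5FU list drew on 6 libraries of 2 series of samples and held 131360 autosomal peaks against 76218 in the knockout.

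H3K27ac in HPCs was carried by few of the regions, about equally often in both genotypes after PBS and less often in the knockout list after IL-1. Any of the 4 HPC H3K27ac lists held 1871 (15.7%, 15.1 to 16.4), against 18.2% of regions shared by wild type and knockout and 49.9% of common ones, and 663 (5.57%) were in all 4. After PBS the knockout list held 9.82% and the wild-type list 9.91%. The knockout alone held 320 and the wild type alone 330 (background 3.89% and 5.21%), so 49.2% (45.4 to 53.1) of those in 1 list were in the knockout, against 48.1% and 45.9% in the comparison sets. After IL-1 the lists held 8.69% and 10.4%, and the counts were 196 and 405 (background 2.55% and 6.02%), or 32.6% against 32.7% and 35.0%. Among the 4426 mutant-shared regions with no wild-type H3K4me1 within 1 kb, the PBS value was 65.0% (58.1 to 71.3, 128 regions against 69). The comparison sets gave 66.1% and 62.9% when held to the same distance from the list that lacked them, so the value was shared by isolated regions of each pattern.

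Away from gene ends, H3K27ac in any HPC list was found at 12.8% (12.1 to 13.5) of the mutant-shared regions and 13.3% (12.5 to 14.0) of those shared by wild type and knockout. Within 1 kb of a gene end it was found at 31.4% (29.3 to 33.5) and 36.6% (34.6 to 38.7). The share was 12.9% in the weakest and 26.4% in the strongest 25% of mutant-shared regions, while among common regions it ran from 28.9 to 70.3%. Few regions had H3K27ac by genotype: 41 regions (0.344%) were in both knockout and neither wild-type HPC list, and 69 (0.579%) were in both wild-type and neither knockout list. These shares were 0.522% and 1.46% over all knockout HPC regions. They were 0.424% and 0.687% over regions shared by wild type and knockout, so neither pattern was more frequent among mutant-shared regions.

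H3K27ac in HSCs gave 281 regions in the knockout alone and 593 in the wild type alone after PBS (background 3.28% and 7.75%), or 32.2% against 32.1% and 29.2% in the comparison sets. After 5FU the counts were 475 and 616 (background 4.27% and 7.39%), or 43.5% (40.6 to 46.5), against 36.2% (33.1 to 39.3) and 35.1%. The interval of the 5FU value lay above those of both comparison sets, although the wild-type list still held the larger number. Regions in the knockout HPC list alone gave 43.0% (39.9 to 46.2), so the value was not limited to mutant-shared regions.

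**Figure D4:**
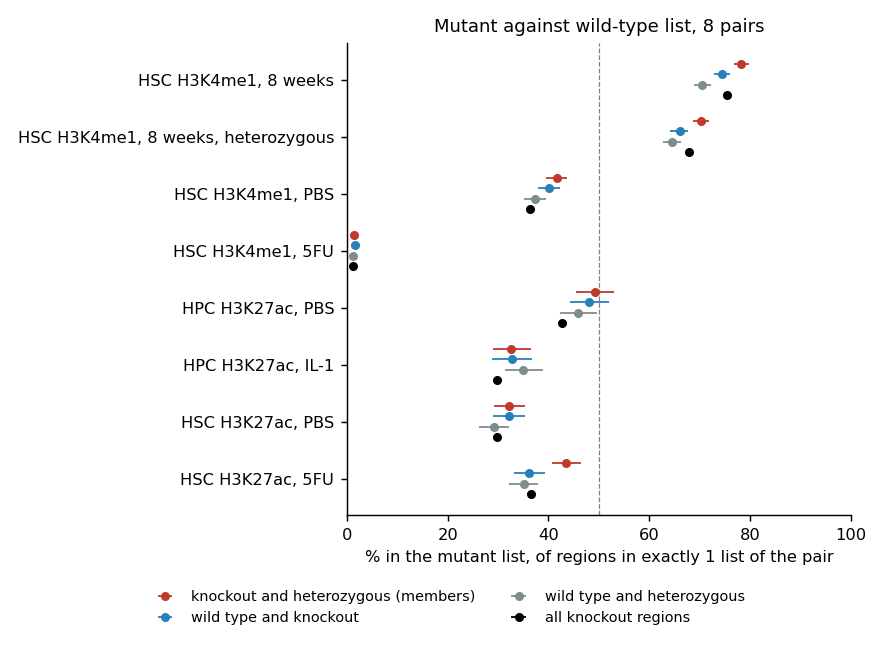
Regions with a peak in exactly 1 list of a mutant and wild-type pair: the percentage that lies in the mutant list (x axis) for 8 pairs (y axis), with Wilson 95% intervals and a dashed line at 50%. The mutant-shared regions stand at 78.3% for HSC H3K4me1 at 8 weeks, 49.2% for HPC H3K27ac after PBS and 43.5% for HSC H3K27ac after 5FU, against 74.5%, 48.1% and 36.2% for regions shared by wild type and knockout.

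Mutant-shared regions made up 46 of 400 knockout regions (11.5%, 8.73 to 15) at granulocyte and monocyte genes, near the 10.0% around all protein-coding genes. Regions of the other 2-list patterns were few there. Within 50 kb of 20 such genes, 46 regions were mutant-shared, 19 were shared by wild type and knockout and 14 by wild type and heterozygote. The mutant pattern thus made up 58.2% (47.2 to 68.5) of 79 regions, against 37.7% of 28226 around all protein-coding genes. It made up 51.4% against 32.4% with equal numbers of peaks, and 52.2% without Irf8, the gene with the most. Genes of the NF-kB and IL-1 response had 40 of 78 (51.3%, 40.4 to 62.1), HSC identity genes 84 of 206 (40.8%), lymphoid genes 49 of 134 (36.6%), and megakaryocyte and erythroid genes 27 of 76 (35.5%). Housekeeping genes had 12 of 64 (18.8%, 11.1 to 30). Over all 12 lists, 403 of 4316 knockout regions (9.34%) were mutant-shared, against 10.0% around all protein-coding genes.

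The gene lists also differed in whether the regions were known from HSCs. Of the 46 mutant-shared regions at granulocyte and monocyte genes, 30 (65.2%, 50.8 to 77.3) were in none of the 7 HSC H3K4me1 lists, and 27 were in none of the 15 other lists. Irf8 supplied 10 of the 30 and Csf3r 5, and the interval treats such neighbouring regions as independent. At HSC identity genes 4 of 84 (4.76%, 1.87 to 11.6) were in no HSC list, at megakaryocyte and erythroid genes 1 of 27, and at lymphoid genes 22 of 49 (44.9%). The value around all protein-coding genes was 22.9%. Common regions gave lower values, with 14.3% at granulocyte and monocyte genes, 17.2% at lymphoid genes, 1.65% at HSC identity genes and 5.89% around all protein-coding genes. The other 2-list sets were small at granulocyte and monocyte genes, with 5 of 19 (26.3%, 11.8 to 48.8) and 5 of 14 (35.7%, 16.3 to 61.2). The list for mature lymphocytes (T, NK and B) had 7 of 18 in no HSC list, and stroma and endothelium markers 0 of 11. The share of mature cells in the sorted HPCs of each genotype was not tested.

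**Figure D5:**
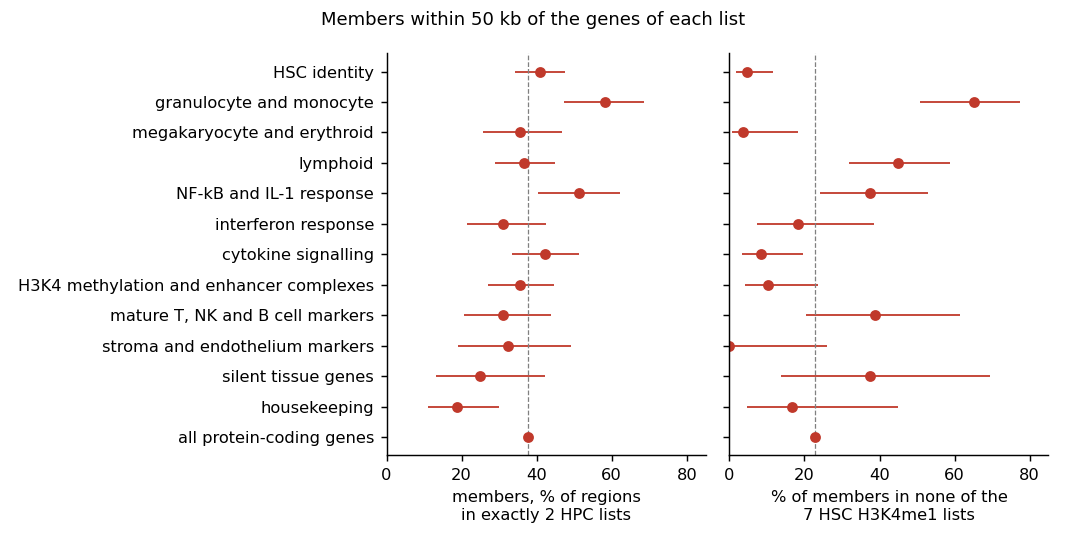
Mutant-shared regions within 50 kb of the genes of 12 lists and of all protein-coding genes (y axis): left, their percentage among regions in exactly 2 HPC lists, and right, the percentage of them in none of the 7 HSC H3K4me1 lists, with Wilson 95% intervals and a dashed line at the value of all protein-coding genes. Granulocyte and monocyte genes are highest in both (58.2% and 65.2%), and housekeeping genes lowest on the left (18.8%).

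Irf8, a transcription factor of monocyte and dendritic cell fate, had 10 mutant-shared regions among 45 knockout regions on chromosome 8 and no region of the other 2-list patterns. Such counts are of the 50 kb window, and several of these regions lay nearer to the neighbouring gene Cox4i1. H3K4me1 peaks covered 51.6 kb of the Irf8 window in the knockout, 48.1 kb in the heterozygote and 42.4 kb in the wild type. The 10 regions had −log10 p from 3.775 to 15.3 in the knockout and from 3.525 to 14.26 in the heterozygote, 8 lay within 1 kb of a wild-type region and none was in an HSC H3K4me1 list. The strongest (chr8:120788404-120789143) had a −log10 p of 15.3 in the knockout and 6.567 in the heterozygote, and it was the one with H3K27ac, in all 4 HPC lists. Csf3r, the receptor for the granulocyte growth factor G-CSF, had 5 among 21 on chromosome 4, some of them inside the neighbouring gene Oscp1. All 5 were over 1 kb from the wild-type list, in none of the 15 other lists, and weak, with −log10 p of at most 7.507 in the knockout and 8.237 in the heterozygote. Csf2rb, a receptor subunit used by GM-CSF and interleukin-3, had 4 among 30, of which 3 were in no other list.

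Among inflammatory and signalling genes, Il1r1, the receptor for IL-1, had 7 mutant-shared regions among 37, of which 5 were in no other list. Peaks covered 42.1 kb around it in the knockout, 42.0 kb in the heterozygote and 38.8 kb in the wild type. Ccl3, a chemokine, had 6 among 38 and Nfkb2, an NF-kB subunit, 5 among 25. Irf1, a transcription factor of interferon response, had 6 among 29. In the cytokine signalling list, Cish, a feedback inhibitor of STAT5, had 10 among 45, Jak1, a kinase of cytokine receptors, 9 among 52 and Stat5b, a transcription factor downstream of such kinases, 8 among 37. Most of the 10 in the Cish window lay nearer to the neighbouring genes Mapkapk3 and Hemk1. None of the 27 regions at these 3 cytokine signalling genes lacked an HSC peak, in contrast to Irf8 and Csf3r.

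HSC genes had many regions in all. Runx1, a regulator of blood stem cell emergence, had 16 mutant-shared regions among 103 knockout regions, 6 shared by wild type and knockout and 3 by wild type and heterozygote. Their −log10 p ran from 3.246 to 12.87 in the knockout. Of the 16, 14 were in an HSC H3K4me1 list and 2 had H3K27ac in HPCs. Angpt1, a ligand of the TIE2 receptor, had 10 among 79 and Meis1, a homeodomain factor of HSCs, 8 among 69, and all 18 were in an HSC list. Over all genes the largest numbers were 17 at Maml3, a Notch coactivator, Arid1b, a subunit of the BAF remodelling complex, and Foxp1, a forkhead repressor. These are long genes, with 130, 174 and 185 knockout regions, of which the mutant-shared made up 13.1%, 9.77% and 9.19%, and Asap1, a GTPase activator, had 15 of 95.

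Genes of the other lists had fewer. Among lymphoid regulators, Bach2 had 8 mutant-shared regions among 80, Ikzf1 had 7 among 56 and Satb1, whose promoter is printed above, 7 among 40, with 5 of the 7 in no other list. Nfe2, a factor of platelet formation, had 6 among 40, all in an HSC list, and the erythroid genes Ank1 and Klf1 had 3 each. The interferon-induced genes Ifitm3 and Gbp3 had 3 among 33 and 2 among 8. Dpy30 and Setd1a, subunits of H3K4 methyltransferase complexes, had 4 among 22 and 4 among 27. The lymphocyte genes Cd4, Cd79b and Klrb1c had 5, 3 and 2, and the endothelial or stromal genes Pecam1, Emcn and Col1a1 had 5, 2 and 2. Myh6, a heart myosin, had 2 among 9, and the housekeeping genes Rpl13a, Polr2a and Hsp90ab1 had 3, 2 and 2.

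Regulators chosen by name had 2 to 6 members in their 50 kb windows, some of them nearer to another gene. The median over 20665 protein-coding genes was 1 and 43.9% had none. As a share of the knockout regions there, members ran from 7.06% at Mecom to 20% at Kmt2c. The share was 7.41% at Cebpa, 9.52% at Gata2, 12.9% at Spi1 and 15.8% at Jak2, against 10% around all protein-coding genes. Mecom, a factor of long-term HSCs, had 6 among 85, all in HSC lists. Spi1, which encodes the myeloid factor PU.1, had 4 among 31, Cebpa, a granulocyte factor, 2 among 27, and Gata2, a stem and progenitor factor, 2 among 21. Kmt2c itself had 4 among 20, while only 4 of the 20 were common regions and 6 were shared by wild type and knockout. Peaks covered 8.82 kb there in the knockout, 5.68 kb in the heterozygote and 6.75 kb in the wild type, and these peaks do not report on the deleted exons.

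At Jak2, the kinase of the thrombopoietin and erythropoietin receptors, 3 of 19 regions were mutant-shared. One (chr19:29250046-29250981) lay 822 bp from the gene and had the high −log10 p of 23.47 and a fold enrichment of 5.142 in the knockout. In the heterozygote it had 6.664 and 2.822, and the wild-type HPC list had no peak until 947 bp away. It was nevertheless in all 15 other lists, including the wild-type HSC H3K4me1 and the wild-type HPC H3K27ac lists.

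The best mean rank over both mutant lists belonged to a region within Hmox2, a haem oxygenase (chr16:4731256-4732073), with −log10 p 22.29 in the knockout and 23.62 in the heterozygote. It was 201 bp from a wild-type region and was in all 7 HSC H3K4me1 lists. The next 9 lay near Tbc1d4, Ahi1, Atp8b4, Dse, Rnf220, Cfap161, Ltbp2, Npr3 and Ccna2. All 10 were within 1 kb of a wild-type region, at 30 to 492 bp. In the 8-week HSC lists they did not behave alike: those at Hmox2, Ltbp2 and Npr3 were in all 3 genotypes, and those at Tbc1d4, Atp8b4 and Dse in none. The region within Atp8b4, a phospholipid transporter (chr2:126469541-126469859), had −log10 p 13.73 and 30.05 and carried H3K27ac in all 4 HPC lists.

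Regions that repeated the mutant pattern elsewhere were mostly modest. Of those with H3K27ac in both knockout and neither wild-type HPC list, the strongest lay in Traf3, a brake on NF-kB and CD40 signalling (chr12:111192639-111193327). Its −log10 p was 15.96 in the knockout and 5.472 in the heterozygote, it lay 10810 bp from the nearest wild-type HPC region, and it was in the knockout and heterozygous but not the wild-type HSC list at 8 weeks. The next 9 lay near Paqr5, Tdrkh, Elmo1, Xpo4, Rsph9, Slc28a1, Aatk, Fbxl17 and Mettl7b, with −log10 p from 9.554 to 12.53 in the knockout. The Elmo1 and Aatk regions were likewise in both mutant lists and not in the wild-type HSC list at 8 weeks, and the Xpo4, Rsph9 and Slc28a1 regions were in that wild-type list. At 16 weeks all 6 of these regions, Traf3 included, had wild-type HSC H3K4me1 after 5FU, and those at Traf3 and Rsph9 also after PBS.

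With H3K4me1 in both mutant HSC lists and in no wild-type HSC list at 8 or 16 weeks, the strongest region lay 6012 bp from Tnfrsf14, a receptor of the TNF family (chr4:154934632-154935264), with −log10 p 19.12 in the knockout and 10.52 in the heterozygote. It was followed by regions at Rnf220, an E3 ubiquitin ligase (chr4:117447964-117448348, 18.39 and 18.73), Opn1sw, a cone opsin (16.26 and 6.804), and Sidt1, a transmembrane protein of RNA uptake (chr16:44324468-44325139, 15.67 and 12.35). The Sidt1 region lay 21387 bp from wild-type H3K4me1 in HPCs, the others 145 to 845 bp. None of these 4 had H3K27ac in any list.

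Vav1, a signalling protein of blood cells, was looked at after its values were seen, because the Vav-Cre transgene carries regulatory sequence of this gene. One of 4 mutant-shared regions among 30 lay just inside its start (chr17:57279474-57280071), with −log10 p 9.466 in the knockout and 17.0 in the heterozygote. It was 534 bp from a wild-type HPC region and had H3K27ac in all 4 HPC lists. At 8 weeks it was in both mutant HSC H3K4me1 lists and not in the wild-type one. After 5FU it was in the wild-type as well as the knockout HSC H3K4me1 list. After PBS it was in the knockout HSC H3K4me1 list and not in the wild-type one. The part of transgene sequence in this peak was not tested.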

How the data were processed

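The authors' deposited files were 18 peak lists, 1 for each group of libraries, so replicates were pooled and have no values of their own. The submitters' processing notes name Novoalign, MACS2 and the build mm10 (GRCm38), without versions. Filters and thresholds were not stated. Of the deposited columns, those used were each peak's position, its fold enrichment (a linear ratio), its −log10 p, and the offset of its summit, as the authors' peak caller gave them. Scores were used to order or select peaks within a list. Where scores of the knockout and heterozygous lists stand side by side they are descriptive, since they also depend on each list's depth, which is unknown.

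Peaks on the 19 autosomes that overlapped or touched were merged, and an overlap of at least 1 bp counted as shared (Python 3.11.15, pandas 2.3.3, numpy 2.4.6), and the interval code was tested on simulated data. A region's score is that of its strongest peak. Genes came from RefSeq (GRCm38.p6), as did the promoter windows, 250 bases before to 50 after each start. No promoter of chromosome 18 was used, so distances to starts leave it out. No genome was used, so base composition and motifs were read from promoter windows rather than around summits as had been planned. Gene windows ran 50 kb to each side, and 213 of 220 listed genes matched. A region counted in a gene's window can therefore lie nearer to, or inside, a neighbouring gene. X-linked genes are not analysed here. Genes named in the text were the nearest of the 10 best-ranked regions, those of up to 10 regions with H3K27ac in knockout HPCs alone, those of up to 5 regions in mutant HSCs alone, the 5 genes with most regions, up to 3 of each list, and 6 fixed genes. The 1 of these on chromosome 18 is not reported here. Members, lists and rules were chosen with earlier results of these data known.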

Additional observations from a re-analysis of the deposited data

How the results depend on the processing

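With 1 pooled list per group, no replicate could be left out. No paired analysis was possible because the lists are pooled and hold no values per replicate. The HPC H3K27ac value after PBS, whose interval held 50% as reported, crossed 50% in regions far from the wild-type list, and with equal numbers of peaks the wild-type and heterozygous pair (35.0%) led the 2-list patterns. Holding the set to regions with no wild-type region within 1 kb left 4426 regions and moved the HPC H3K27ac share in the knockout to 65.0% after PBS and 41.3% after IL-1. It moved the HSC H3K27ac share to 35.9% after PBS and 48.9% after 5FU, and the HSC H3K4me1 share at 8 weeks to 76.8%. The share with H3K27ac in HPCs moved to 14.2% and the share near a gene end to 17.8%. The share around listed genes moved to 2.83% (2.37 to 3.36), with fewer members counted. How much of that move the lower number of members accounts for was not tested. Requiring an overlap of 50% of the shorter region gave 70.9% within 1 kb of a wild-type region, 76.0% for HSC H3K4me1 and 14.1% with H3K27ac. Equal numbers of peaks left 9831 members and gave 32.5% for the 2-list pattern and 16.4% with H3K27ac in HPCs. The same setting gave a median promoter GC content of 51.0% and 7.58% around listed genes, again with fewer members counted. Equal covered bases gave 61.6% within 1 kb, a −log10 p of at least 3 in all lists gave 14.7% with H3K27ac, and merging peaks within 200 bp gave 17.2% near a gene end. By construction, a 2 kb flank gave 73.7% and a 5 kb distance to a gene end 42.8%. Around gene lists, alternatives chosen after seeing the data moved the HSC identity share of 2-list regions from 40.8% to 33.9% with equal numbers of peaks. The share around all protein-coding genes also fell at that setting, from 37.7% to 32.4%. Base composition in 200 bases around summits was not run.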
